A study of Mus musculus with 29 samples.

Results

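Fibroblast growth factor (FGF) ligands of the paraxial mesoderm, the tissue that forms the somites, were followed through mouse embryos at E9.0. The 9 genes are Fgf3, Fgf4, Fgf5, Fgf8, Fgf9, Fgf10, Fgf15, Fgf17 and Fgf18, taken by symbol from the 23337 genes counted. All 9 were listed for every one of the 29 RNA-seq libraries, though some had no counts in some libraries. DIR (n = 4) and CTRL (n = 4) are Dll1-lineage cells from explanted presomitic mesoderm, cultured with LDN and SAG (DIR) or without them (CTRL). LDN inhibits receptors for bone morphogenetic proteins (BMPs), and SAG turns on Hedgehog signalling through Smoothened. The SOM groups are uncultured YFP+ cells of the Dll1 lineage, dissociated from 4 successive levels of the axis and sorted, with 3 libraries for SOMA and 4 for each other level. SOMA holds the presomitic mesoderm (PSM) and the last somite to form. SOMB spans somites 2 to 5, SOMC spans 6 to 9, and SOMD starts at 10. The labels end SOMD at somite 13, 14, 15 and 16 in replicates 1 to 4, so its end is uncertain. MUT (n = 3) and WT (n = 3) are unsorted trunks, and the labels leave the mutation unnamed. All embryos are labelled C57BL/6, and the explants came from embryos that carry Dll1-YFP. The mark labels cells that descend from Dll1-expressing cells and not one cell type. Whether replicates came from different embryos or cultures is not in the labels. The p-values therefore weigh group differences only against the spread among these libraries, and that spread may be technical. The labels also give no culture time or dose for LDN and SAG.

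FGFs are secreted proteins that bind receptor tyrosine kinases together with heparan sulfate or Klotho proteins and switch on the Ras, ERK and PI3K cascades. In the tail bud and posterior PSM, Fgf8 and Fgf4 are known as the main ligands that keep cells unsegmented, and Fgf3 and Fgf17 are expressed there too. Their mRNA is lost as cells approach the front of the PSM, where somites form. Fgf18 is expressed in PSM, somites and later cartilage, and Fgf10 is the mesenchymal ligand of limb, lung and other buds. Fgf9, Fgf5 and Fgf4 are known in the myotome or in early muscle precursors, and Fgf15, the mouse counterpart of human FGF19, is known in the neural tube and later as a hormone of the ileum.

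Fgf3, Fgf4 and Fgf15 lie in a row on the plus strand of mouse chromosome 7, at 144838083 to 144844436, 144847367 to 144865243 and 144896531 to 144900953 (GENCODE M21 gene bodies, GRCm38). Fgf18 lies on the minus strand of chromosome 11 at 33117430 to 33147400, and Fgf10 on the plus strand of chromosome 13 at 118669791 to 118792115. Fgf8 is on chromosome 19 (45736798 to 45742915, minus strand) and Fgf5 on chromosome 5 (98254184 to 98277030, plus strand). Fgf9 and Fgf17 are both on chromosome 14, at 58070547 to 58112720 on the plus strand and 70636203 to 70642268 on the minus strand. All 9 are protein-coding. GENCODE places antisense RNAs over parts of Fgf10 and Fgf15. The library kit does not mark strand, so reads of these genes and their antisense partners cannot be told apart.

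Promoters are shown for 4 ligands whose levels moved in different ways: Fgf3 and Fgf4, which neighbour each other, and Fgf18 and Fgf10, which went opposite ways along the somites. Each runs from 250 bases before to 50 bases after the RefSeq start, 5′ to 3′ on the gene's own strand (GRCm38.p6). They are chr7:144838362-144838661 (plus, Fgf3), chr7:144861136-144861435 (plus, Fgf4), chr11:33147351-33147650 (minus, Fgf18) and chr13:118714449-118714748 (plus, Fgf10). Capitals mark matches to 6 motifs searched on both strands: the TATA box (TATAAA), the GC box (GGGCGG), the CCAAT box, the Tcf/Lef-type site CTTTGNT, the T-box half-site GGTGTGA and the Gli site GACCACCCA.
Fgf3: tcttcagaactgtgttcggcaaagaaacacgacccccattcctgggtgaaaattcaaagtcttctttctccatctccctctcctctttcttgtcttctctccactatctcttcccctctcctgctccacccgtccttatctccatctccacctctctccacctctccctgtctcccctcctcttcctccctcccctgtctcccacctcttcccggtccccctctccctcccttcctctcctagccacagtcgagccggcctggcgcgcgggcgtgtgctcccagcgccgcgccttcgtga
Fgf4: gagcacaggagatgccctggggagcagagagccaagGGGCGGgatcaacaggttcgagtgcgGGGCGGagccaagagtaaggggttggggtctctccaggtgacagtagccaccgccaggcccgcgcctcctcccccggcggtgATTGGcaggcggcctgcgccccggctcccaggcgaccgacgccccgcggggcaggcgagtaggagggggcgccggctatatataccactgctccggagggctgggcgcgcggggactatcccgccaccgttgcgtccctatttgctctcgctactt
Fgf18: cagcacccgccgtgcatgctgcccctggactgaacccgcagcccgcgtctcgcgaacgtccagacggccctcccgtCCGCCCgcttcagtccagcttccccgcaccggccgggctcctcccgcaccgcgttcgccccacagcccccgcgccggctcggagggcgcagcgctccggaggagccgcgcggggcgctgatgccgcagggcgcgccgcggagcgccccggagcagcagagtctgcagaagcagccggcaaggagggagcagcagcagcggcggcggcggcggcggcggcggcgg
Fgf10: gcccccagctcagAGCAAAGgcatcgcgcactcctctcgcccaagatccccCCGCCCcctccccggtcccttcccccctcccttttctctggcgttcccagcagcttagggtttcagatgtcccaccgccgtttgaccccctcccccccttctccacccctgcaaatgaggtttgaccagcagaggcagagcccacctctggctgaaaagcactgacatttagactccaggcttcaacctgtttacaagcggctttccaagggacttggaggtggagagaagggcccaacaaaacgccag
The Fgf3 window held none of the 6 motifs. In the Fgf4 window GGGCGG began 214 and 188 bases before the start, and CCAAT lay on the other strand 106 bases before it. In the Fgf18 window GGGCGG lay on the other strand, 174 bases before the start, and in the Fgf10 window GGGCGG and CTTTGNT lay on the other strand, 199 and 237 bases before it. These letters are common: of 32851 promoters of that length 35.7% held GGGCGG, 37.4% CCAAT and 18.6% CTTTGNT. The TATA box was in 13.6% of them, GGTGTGA in 3.98% and GACCACCCA in 0.253%. The 4 windows lay above the median of 52.7% G and C over all promoters, with 78.7% in the Fgf18 window, 69.7% in Fgf4, 60.7% in Fgf10 and 59.3% in Fgf3. For Fgf10 and Fgf3 this is not extreme: 73.1% and 68.9% of all promoters held less. The corresponding values are 98.6% for Fgf18 and 90.4% for Fgf4. The RefSeq start of Fgf4 is 14019 bp inside the GENCODE gene body, so the starts of Fgf3 and Fgf4 are 22774 bp apart although the gene bodies are 2930 bp apart. The RefSeq starts of Fgf10 and Fgf3 lie 44908 and 529 bp inside their GENCODE gene bodies. The Fgf10 window also lies within the antisense RNA gene Gm16263 (118695292 to 118715396).

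Gene counts per library ran from 11541131 to 44363411, and levels are given as CPM, counts scaled to a common library total, after TMM scaling over all 29 libraries. The labels were checked against marker genes. The summed level of 6 tail bud and PSM markers (T, Tbx6, Msgn1, Wnt3a, Cdx4 and Hes7) was 102.7 to 397.1 CPM in DIR, 161.5 to 285.2 in CTRL and 140.9 to 322.2 in SOMA, and at most 17.8 in SOMB, SOMC and SOMD. All 4 sclerotome markers, Pax1, Pax9, Nkx3-2 and Sox9, were higher in SOMB than in SOMA by the edgeR test used below, where 4.13% of all genes tested were. The 4 formed somite markers (Meox1, Tcf15, Uncx and Pax3) did not set SOMB apart. They summed to 472.4 to 584.4 CPM in SOMA, 494.5 to 668.9 CPM in SOMB and 290.4 to 470.5 CPM in SOMD, and 1 of 4 was higher in SOMB than in SOMA. MUT and WT held more neural tube RNA, with 188.1 to 275 CPM (MUT) and 208.6 to 312 CPM (WT) of 7 neural tube markers, against at most 103.3 CPM in any sorted or cultured library. Lateral plate and limb field markers went the other way, with 82.17 to 142.6 CPM in MUT and 94.85 to 183.1 CPM in WT, against 200 to 483.7 CPM in the SOM libraries. Surface ectoderm and intermediate mesoderm markers overlapped with the SOM libraries. DIR1, DIR2 and CTRL1 stood apart from the other cultured libraries, with 22.3 to 25.4% of reads aligned at more than 1 place against 15.9 to 19.5%. Of the SOM libraries, replicates 1 of every level and replicates 4 of SOMC and SOMD had the higher shares of reads in no gene, at 12 to 12.8%. SOMC1 and SOMC4, and SOMD1 and SOMD4, differed by a chi-square of 1.952 and 1.908 per degree of freedom, where sampling noise alone gives about 1 and other pairs of 1 group gave 9.24 to 217.1. They were kept apart. If they are repeat libraries of 1 sample, n is 3 in SOMC and SOMD.

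The ligands together were most abundant in cultured cells and SOMA and thinned out along the somites. Per kb of exon, which allows genes to be compared, the 9 summed to 84.5 ± 18.5 CPM per kb in DIR, 55.1 ± 8.86 in CTRL and 58.1 ± 6.09 in SOMA (mean ± SD over libraries). The sum was 26.7 ± 3.45 CPM per kb in SOMB, 15.0 ± 3.95 in SOMC and 12.5 ± 1.16 in SOMD, and 24.4 ± 3.60 in MUT and 24.9 ± 10.9 in WT. In bulk samples fewer cells of a type and less RNA per cell cannot be told apart. The make-up changed as well as the sum. Fgf18 held 57.8 ± 9.94% of the sum in SOMA, 66.4 ± 5.18% in SOMB, 44.6 ± 7.30% in SOMC and 11.7 ± 4.49% in SOMD. Fgf10 held 5.51 ± 1.96%, 15.2 ± 4.71%, 27.0 ± 4.77% and 61.8 ± 12.9% at the same 4 levels. Fgf18 was thus the largest share of the ligand mRNA from SOMA to SOMC and Fgf10 in SOMD. Fgf8 held 23.9 ± 9.31% in CTRL, its highest mean share of any group, and Fgf15 held 22.9 ± 9.08% in MUT and 22.7 ± 4.15% in WT, against at most 10.4 ± 2.10% elsewhere (DIR). The share of Fgf15 depends on the length used. Per kb of the longest transcript it was 30.7% in MUT, 30.6% in WT and 15.2% in DIR, and in WT it was then above Fgf18 (24.4%). Fgf4, a main tail bud ligand by reputation, held only 0.147 ± 0.116% in SOMA. Its share was 4.56 ± 0.938% in DIR and 0.943 ± 0.236% in CTRL.

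**Figure D1:**
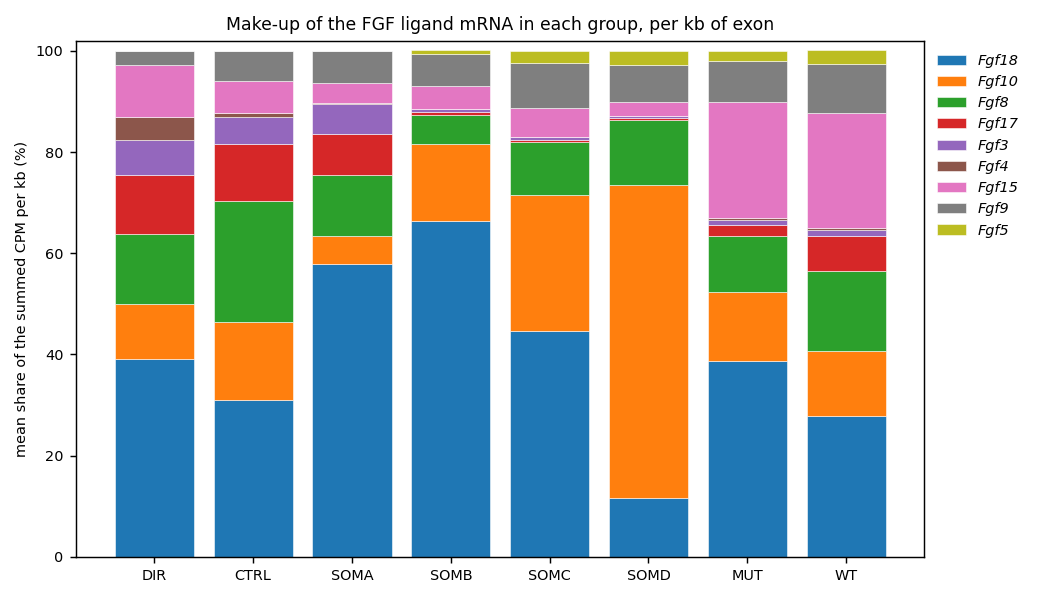
Stacked bars give the mean share (%) of each of the 9 ligands in their summed CPM per kb of exon, for each of the 8 groups. Fgf18 is the largest share in SOMA (57.8%), SOMB (66.4%) and SOMC (44.6%), and Fgf10 in SOMD (61.8%).

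**Figure D2:**
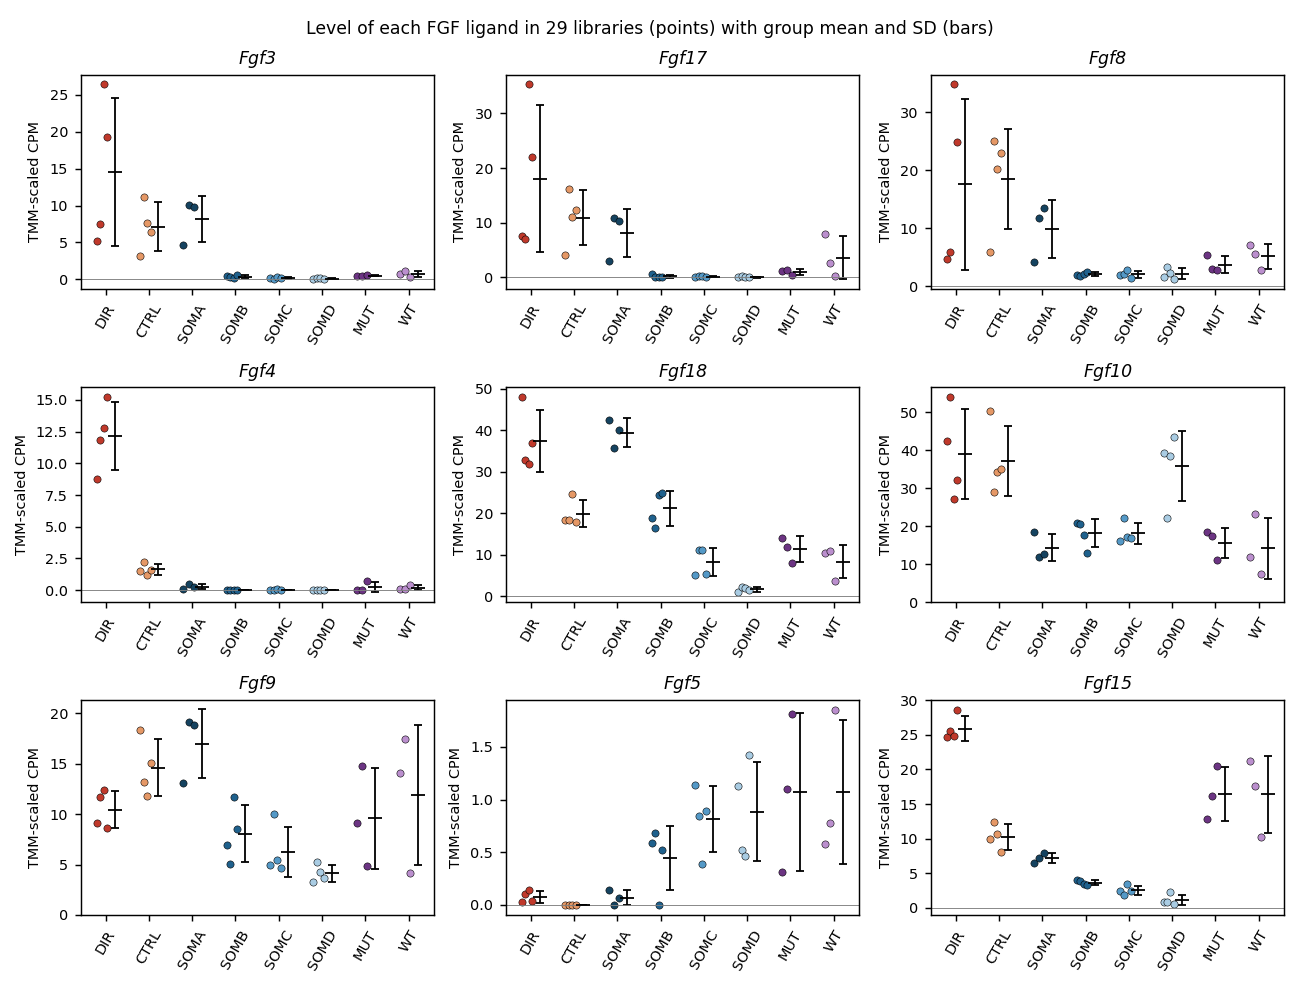
Each panel shows 1 ligand, with TMM-scaled CPM on the linear y axis and the 8 groups on the x axis. Points are the 29 libraries, and bars give the group mean with its SD. Fgf3 and Fgf17 are high in DIR, CTRL and SOMA and at most 0.590 CPM in every SOMB, SOMC and SOMD library, Fgf18 steps down from SOMA to SOMD, and Fgf10 is higher in SOMD than in SOMA, SOMB and SOMC.

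Of the 4 tail bud ligands, Fgf3, Fgf17 and Fgf8 fell sharply between the PSM and the first formed somites. Fgf3 had 4.64, 10.1 and 9.80 CPM in SOMA1, SOMA3 and SOMA4, and 0.453, 0.256, 0.137 and 0.590 CPM in SOMB1 to SOMB4. It was low in every later library too, at 0.0648 to 0.261 CPM in SOMC and 0 to 0.231 CPM in SOMD. No SOMB library reached the lowest SOMA value, and SOMB, SOMC and SOMD overlapped with their neighbours. In edgeR's quasi-likelihood test, with Benjamini-Hochberg adjustment of p-values across every gene tested and a threshold of 0.05, Fgf3 fell by 4.50 ± 0.46 on the log2 scale in SOMB against SOMA (log2 fold change ± SE, adjusted p = 1.07e-05). That is 22.6-fold lower. Neither later step passed for Fgf3 (−0.77 ± 0.64, adjusted p = 0.626, SOMC against SOMB, and −1.33 ± 0.88, adjusted p = 0.714, SOMD against SOMC), and by then few counts were left, 5 in all of SOMD.

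Fgf17, of the same subfamily as Fgf8 and Fgf18, had 3.06, 10.8 and 10.4 CPM in SOMA1, SOMA3 and SOMA4, and 0.589, 0.0427, 0.137 and 0.148 CPM in SOMB1 to SOMB4. Later it was at 0.0372 to 0.196 CPM in SOMC and 0 to 0.173 CPM in SOMD. The drop to SOMB was 32.3-fold (−5.01 ± 0.58, adjusted p = 3.75e-05), with no overlap of the groups. SOMA1 was the lowest SOMA library for Fgf3, Fgf8 and Fgf17, and also for the 6 tail bud markers (140.9 CPM, against 322.2 and 290.4 in SOMA3 and SOMA4); the part of tail bud content in these values was not tested.

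Fgf8, the best-studied ligand of the PSM gradient, fell less, and no later step passed. It had 4.17, 11.8 and 13.6 CPM in SOMA1, SOMA3 and SOMA4, and 2.00, 1.75, 2.06 and 2.51 CPM in SOMB1 to SOMB4. SOMC libraries had 1.93, 2.07, 2.87 and 1.41 CPM and SOMD libraries 1.66, 3.37, 2.31 and 1.17 CPM. All SOMB libraries lay below all SOMA libraries, while SOMB, SOMC and SOMD covered the same range. The fall to SOMB was by 2.25 ± 0.37 on the log2 scale (adjusted p = 9.51e-04), and the later steps were −0.01 ± 0.38 (adjusted p = 0.994; 95% interval −0.82 to 0.80) and 0.02 ± 0.39 (adjusted p = 0.999; −0.81 to 0.85). The intervals allow a change of up to about 0.85 on the log2 scale at either step. Per kb the share of Fgf8 in the ligand sum was 5.76 ± 0.514% in SOMB, 10.3 ± 2.04% in SOMC and 12.9 ± 6.82% in SOMD. The mean shares of Fgf3 and Fgf17 stayed under 1% at these levels, at 0.350 to 0.628% and 0.310 to 0.512%.

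Fgf4 was scarce in all uncultured sorted cells. SOMA1, SOMA3 and SOMA4 had 2, 7 and 4 counts (0.0719, 0.512 and 0.253 CPM), and SOMB, SOMC and SOMD had 1 count per group, in SOMB1, SOMC3 and SOMD4. It did not pass the filter on low counts in the SOM fit. By counts alone, SOMB had 1 and SOMA 13, a ratio of 0.0599 (95% exact interval 0.00141 to 0.399, counting error only), and SOMD against SOMA gave 0.0651 (0.00153 to 0.433). Without the filter edgeR gave −3.62 (adjusted p = 0.0406) for SOMB against SOMA and −3.55 (adjusted p = 0.0264) for SOMD against SOMA, and with all 29 libraries in 1 fit adjusted p was 0.262 and 0.170. The gene is thus low in SOMA as a whole by these counts, which do not show its level in the tail bud alone. It is not measurable as a myotome ligand in SOMB to SOMD, where 1 count in a group lies under the limit that 3 counts set (0.0385 to 0.0443 CPM).

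Fgf18 fell step by step along the whole series. It had 42.5, 35.7 and 40.2 CPM in SOMA1, SOMA3 and SOMA4, 18.9, 16.4, 24.5 and 25 CPM in SOMB1 to SOMB4, 5.15, 11.1, 11.1 and 5.47 CPM in SOMC1 to SOMC4, and 0.994, 2.33, 1.93 and 1.64 CPM in SOMD1 to SOMD4. At every step all libraries of the more anterior level lay below all libraries of the level before. The steps were −0.91 ± 0.24 (adjusted p = 0.0255) for SOMB against SOMA, −1.38 ± 0.24 (adjusted p = 0.0150) for SOMC against SOMB, and −2.24 ± 0.30 (adjusted p = 0.00146) for SOMD against SOMC. Over the whole series Fgf18 was 23.1-fold lower in SOMD than in SOMA (−4.53 ± 0.30, adjusted p = 4.74e-08). The first 2 steps rest on few libraries. The first lost its call in 5 of 7 fits without 1 library (adjusted p = 0.0279 to 0.0820 over the 7: lost without SOMA1, SOMA3, SOMA4, SOMB1 or SOMB2). The second lost it without SOMB4, SOMC1 or SOMC4 (0.0639, 0.0596 and 0.0602), and with the near-identical pairs summed (0.0792). In libraries with the higher and the lower share of reads in no gene, the 3 step differences in log2(CPM + 0.5) were −1.15 and −0.80, −1.74 and −0.93, and −1.70 and −2.15.

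Fgf10 went the other way, late. It had 18.5, 11.9 and 12.8 CPM in SOMA1, SOMA3 and SOMA4, 21.0, 20.7, 17.8 and 13.0 CPM in SOMB1 to SOMB4, 16.1, 22.3, 17.3 and 16.8 CPM in SOMC1 to SOMC4, and 39.4, 22.3, 38.5 and 43.4 CPM in SOMD1 to SOMD4. SOMA, SOMB and SOMC overlapped, and SOMD lay above all of them, SOMD2 by a margin too small to show at 3 digits (22.28 against 22.27 CPM in SOMC2). The first steps gave 0.32 ± 0.22 (adjusted p = 0.522) and −0.01 ± 0.20 (adjusted p = 0.993; 95% interval −0.43 to 0.42), and the last 1.01 ± 0.20 (adjusted p = 0.0122). SOMD was 2.51-fold higher than SOMA (1.33 ± 0.22, adjusted p = 3.94e-04). The last step lost its call with the near-identical pairs summed (0.91, adjusted p = 0.164) and without SOMC1, SOMC4, SOMD1 or SOMD4 (0.0537, 0.0525, 0.0520 and 0.0665). SOMD2 had the lowest Fgf10 of its group, and without it the step was called with a larger difference (1.18, adjusted p = 0.00176). The summed level of the 8 lateral plate and limb field markers in the files, tissue in which Fgf10 is well known, was 355.2 to 483.7 CPM in SOMD and 332.8 to 438.5 CPM in SOMC. None of the 8 was at 0 in any group, and they did not move as one. In SOMD against SOMC, 1.26% of all genes tested were higher and 1.07% lower. Gata4 was higher there (8.48 to 40.6 CPM in SOMD, 2.41 to 5.70 CPM in SOMC, adjusted p = 0.00610) and Hand1 lower (22.4 to 30.8 CPM in SOMD, 53.4 to 87.95 CPM in SOMC, adjusted p = 0.00412). The forelimb factor Tbx5 lay higher in every SOMD library than in any SOMC library (40.7 to 52.2 CPM in SOMD, 15.9 to 37.4 CPM in SOMC) without passing (adjusted p = 0.676), and Prrx1 averaged 228.1 CPM in SOMD and 142.9 CPM in SOMC (adjusted p = 0.1002). In SOMD against SOMA, 10.8% of all genes tested were higher and 8.92% lower. Gata4 and Tbx5 were higher there, as Fgf10 was (adjusted p = 5.41e-05 and 2.75e-04), and the hindlimb factor Tbx4 was lower (adjusted p = 0.00124). The part of such cells in the Fgf10 values was not tested.

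Of the 3 ligands known in muscle precursors, Fgf4 was too scarce to follow, Fgf9 fell and Fgf5 rose over the series. Fgf9 had 13.1, 19.2 and 18.8 CPM in SOMA1, SOMA3 and SOMA4, 6.98, 5.08, 11.7 and 8.55 CPM in SOMB1 to SOMB4, 5.01, 9.97, 5.47 and 4.61 CPM in SOMC1 to SOMC4, and 3.31, 5.27, 4.24 and 3.70 CPM in SOMD1 to SOMD4. It was highest in SOMA, with no overlap between SOMB and SOMA. The first step was −1.09 ± 0.28 (adjusted p = 0.0215), and SOMD was 4.10-fold lower than SOMA (−2.03 ± 0.30, adjusted p = 1.07e-04). The first step lost its call without SOMA3, SOMA4, SOMB1 or SOMB2 (adjusted p = 0.0913, 0.0856, 0.0598 and 0.0585). The difference of SOMD and SOMA was called in every alternative. Of 6 myotome markers, 5 were tested in SOMB against SOMA. Myf5 and Myf6 were higher in SOMB than in SOMA (3.11 ± 0.42, adjusted p = 1.64e-04, and 4.0 ± 1.14, adjusted p = 0.0384), where 4.13% of all genes tested were. Myog, Actc1 and Des did not pass, and Des was below SOMA in every SOMB library (−0.39 ± 0.13, adjusted p = 0.0843). In SOMD against SOMA, Myf5, Myf6 and Myog were higher and Des lower (−0.44 ± 0.13, adjusted p = 0.0268), where 10.8% of all genes tested were higher and 8.92% lower. Actc1 overlapped between these groups, with 13.7 to 40.7 CPM in SOMD and 15.9 to 26.2 CPM in SOMA. Myog, at 0 counts in SOMA, averaged 9.75 CPM in SOMD. The summed level of the 6 was 48.6 to 70.1 CPM in SOMB and 49.4 to 89.8 CPM in SOMD, against 56.6 to 70.1 CPM in SOMA.

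Fgf5 was higher late in the series, at a low level. It had 0.144, 0 and 0.0632 CPM in SOMA1, SOMA3 and SOMA4 (5 counts in all), 0.589, 0.684, 0 and 0.516 CPM in SOMB1 to SOMB4, 1.14, 0.842, 0.391 and 0.893 CPM in SOMC1 to SOMC4, and 1.13, 0.518, 0.463 and 1.42 CPM in SOMD1 to SOMD4. SOMD did not overlap SOMA, while SOMB3, with none, kept SOMB from standing clear of it. SOMD against SOMA gave 3.39 ± 0.80 (adjusted p = 0.00645), from 69 counts against 5. SOMB against SOMA gave 2.37 ± 0.88 (adjusted p = 0.124), and it passed with the replicate number as a block (2.45, adjusted p = 0.0461) and without SOMB3 (2.72, adjusted p = 0.0233).

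Fgf15 fell slowly. It had 6.40, 7.16 and 7.84 CPM in SOMA1, SOMA3 and SOMA4, 3.99, 3.89, 3.36 and 3.25 CPM in SOMB1 to SOMB4, 2.33, 1.88, 3.39 and 2.38 CPM in SOMC1 to SOMC4, and 0.795, 0.863, 2.24 and 0.533 CPM in SOMD1 to SOMD4. SOMB and SOMA did not overlap, and SOMD3 stood above the other SOMD libraries, inside the range of SOMC. SOMD was lower than SOMA by 2.75 ± 0.32 on the log2 scale (adjusted p = 1.50e-05). The first step passed narrowly (−0.98 ± 0.28, adjusted p = 0.0418), but not in any of the 7 fits without 1 library (0.0640 to 0.156), nor with the replicate block (−0.93, adjusted p = 0.0593). The last step did not pass (−1.23 ± 0.32, adjusted p = 0.0605), but passed without SOMD3 (−1.80, adjusted p = 0.00201) and by DESeq2 (adjusted p = 0.00588). The 7 neural tube markers, whose tissue is a known source of Fgf15, had summed levels between 29.5 and 46.3 CPM in SOMA and between 31.1 and 103.3 CPM in SOMB. Their sums lay between 31.4 and 58.6 CPM in SOMC and between 21.7 and 56.6 CPM in SOMD. None was at 0. In SOMB against SOMA 3 of 7 were higher, where 4.13% of all genes tested were. SOMD3, the highest SOMD library for Fgf15, was also the highest for these markers, at 56.6 CPM against 21.7 to 27.3 CPM in SOMD1, SOMD2 and SOMD4. The part of neural tube RNA in the Fgf15 values was not tested.

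Of the single steps, SOMB against SOMA had the largest number of ligand calls. Of the 9, 8 passed the filter on low counts in the SOM fit, and Fgf4 did not. In SOMB against SOMA 6 of these were lower and none higher, where 8.67% of all 13790 genes tested passed, 4.55% lower and 4.13% higher. The 6 calls became 3 in each of the fits without SOMA3, SOMA4, SOMB1 or SOMB2, where Fgf9, Fgf15 and Fgf18 were lost. They became 4 with all 29 libraries in 1 fit. By size, Fgf18, Fgf10 and Fgf15 had larger differences at the last step than at the first, which was not tested. The median log2 fold change of the tested ligands was −1.03, against 0.01 over all genes tested. In SOMC against SOMB only Fgf18 passed, lower, where 0.827% of all genes passed, 0.341% lower and 0.486% higher. In SOMD against SOMC Fgf18 was lower and Fgf10 higher, where 2.34% of all genes passed, 1.07% lower and 1.26% higher. In SOMD against SOMA all 8 tested ligands passed, 6 lower and 2 higher (Fgf5 and Fgf10), where 19.8% of all genes passed, 8.92% lower and 10.8% higher. These comparisons share libraries and are not independent.

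**Figure D3:**
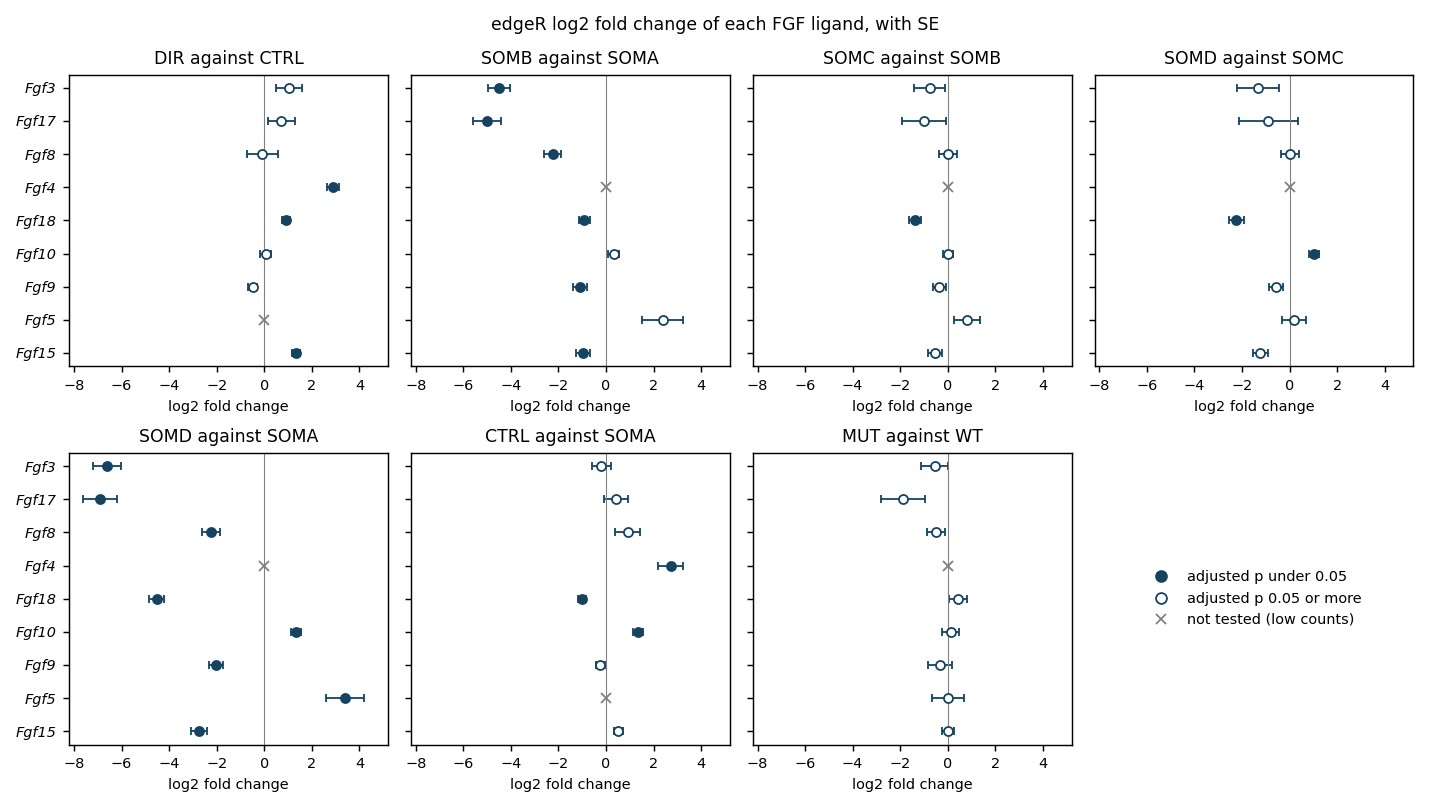
Each panel shows 1 of the 7 comparisons, with the edgeR log2 fold change (x axis, linear) of each ligand (rows) and its SE as a bar. Filled points have an adjusted p under 0.05, open points do not, and a cross marks a ligand not tested for low counts. In SOMD against SOMA all 8 tested ligands are filled, and in MUT against WT none is.

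Cells cultured without LDN and SAG were set against the fresh PSM and newest somite. Culture and handling cannot be told apart in this comparison. Of 8 tested ligands 2 were higher in CTRL and 1 lower, where 20.8% of the 14137 genes tested passed, 12% higher and 8.8% lower. Fgf4 had 1.54, 2.23, 1.20 and 1.58 CPM in CTRL1 to CTRL4, against 0.0719, 0.512 and 0.253 CPM in SOMA. Every CTRL library was above every SOMA library, by a mean of 6.55-fold (2.71 ± 0.53, adjusted p = 0.00784), though with the replicate number as a block the call was lost (2.56, adjusted p = 0.0549). Fgf10 had 50.4, 28.9, 34.3 and 35.1 CPM in CTRL, against 18.5, 11.9 and 12.8 CPM in SOMA, also without overlap (1.34 ± 0.23, adjusted p = 0.00413). Fgf18 was the one that was lower, with 18.5, 18.5, 24.8 and 17.9 CPM in CTRL, against 42.5, 35.7 and 40.2 CPM in SOMA (−1.01 ± 0.15, adjusted p = 0.00232). For comparison, Fgf10 averaged 35.9 ± 9.33 CPM in SOMD and Fgf18 averaged 21.2 ± 4.23 CPM in SOMB. The tail bud ligands Fgf3, Fgf8 and Fgf17 did not pass against SOMA. Their differences were −0.21 ± 0.40 (95% interval −1.11 to 0.69, adjusted p = 0.748), 0.90 ± 0.51 (−0.23 to 2.04, adjusted p = 0.230) and 0.43 ± 0.50 (−0.69 to 1.54, adjusted p = 0.575). Without CTRL1, which had the lowest Fgf8 of its group (5.91 CPM), Fgf8 passed (1.24, adjusted p = 0.0157). Fgf15 lay above SOMA in every CTRL library (7.98 to 12.4 CPM in CTRL, 6.40 to 7.84 CPM in SOMA) and did not pass (0.50 ± 0.19, adjusted p = 0.0858). Without CTRL1 it did (0.54, adjusted p = 0.0495). Fgf5 had no count in CTRL and 5 in SOMA, and was under the filter. The exact 95% interval of the ratio of SOMA to CTRL starts at 2.04 (counting error only), and the edgeR fit without the filter did not pass (adjusted p = 0.0986). Fgf9 gave −0.23 ± 0.20 (adjusted p = 0.434).

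Treatment with LDN and SAG went with higher Fgf4, Fgf15 and Fgf18. Of 8 tested ligands these 3 were higher in DIR and none lower, where 0.747% of 14190 genes passed, 0.303% higher and 0.444% lower. The median log2 fold change of the 8 was 0.81, against −0.01 over all genes tested. Fgf4 had 8.74, 11.8, 12.8 and 15.2 CPM in DIR1 to DIR4, against 1.54, 2.23, 1.20 and 1.58 CPM in CTRL1 to CTRL4. Its lowest DIR value was above its highest CTRL value, a 7.31-fold difference (2.87 ± 0.25, adjusted p = 0.00113). It was higher by 2.39 in log2(CPM + 0.5) among the 3 libraries with more reads aligned at more than 1 place and by 2.76 among the other 5, beside 2.56 over all. Fgf4 averaged 12.1 ± 2.68 CPM in DIR, and no library of another group was above 2.23 CPM (CTRL2).

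Fgf15 had 24.7, 25.5, 24.9 and 28.6 CPM in DIR, against 9.92, 12.4, 10.7 and 7.98 CPM in CTRL. These were the most even values of any ligand in DIR, and the groups were far apart, by 2.52-fold (1.33 ± 0.16, adjusted p = 0.00573). The difference was 1.30 and 1.35 within the 2 sets of libraries. The 7 neural tube markers summed to 28.9 to 50.1 CPM in DIR and 18.1 to 27.6 CPM in CTRL, none of them at 0. Of 6 tested, 1 was higher in DIR, where 0.303% of all genes tested were. Their part in the Fgf15 values was not tested. Fgf18 had 48.0, 32.8, 31.8 and 36.9 CPM in DIR, against 18.5, 18.5, 24.8 and 17.9 CPM in CTRL. No DIR library reached down to CTRL, but the call was at the threshold (0.90 ± 0.17, 1.87-fold, adjusted p = 0.0498). It was lost in each of the 8 fits that left out 1 library (adjusted p = 0.0622 to 0.185), and with RLE scaling (0.0512) or library totals (0.0756). The difference itself stayed between 0.77 and 1.02 in all of the 16 alternatives, and was 1.08 and 0.75 in log2(CPM + 0.5) within the 2 sets. Fgf18 averaged 37.4 ± 7.41 CPM in DIR and 39.4 ± 3.45 CPM in SOMA, a difference that was not tested.

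The other tail bud ligands spread widely within both cultured groups. Fgf3 had 5.13, 7.56, 26.4 and 19.2 CPM in DIR, against 3.21, 11.2, 7.62 and 6.46 CPM in CTRL. Fgf17 had 7.66, 7.12, 35.3 and 21.98 CPM in DIR, against 4.08, 16.2, 11.0 and 12.3 CPM in CTRL. Fgf8 had 4.66, 5.92, 34.9 and 24.9 CPM in DIR, against 5.91, 24.99, 20.2 and 23.0 CPM in CTRL. For all 3, DIR1, DIR2 and CTRL1 were low, the libraries with 22.3 to 25.4% of reads aligned at more than 1 place, apart from Fgf3 in DIR2, which lay above CTRL4. The tail bud marker sum was low in the same libraries, at 102.7, 166, 397.1 and 298.5 CPM in DIR1 to DIR4, against 161.5, 285.2, 241.5 and 263.2 CPM in CTRL1 to CTRL4. Groups overlapped for each, and none passed, with 1.03 ± 0.54 for Fgf3 (95% interval −0.18 to 2.24, adjusted p = 0.387), 0.72 ± 0.57 for Fgf17 (−0.55 to 1.99, adjusted p = 0.556) and −0.08 ± 0.66 for Fgf8 (−1.56 to 1.40, adjusted p = 0.967). Within the 3 libraries of high share and the 5 of low share, Fgf3 differed by 0.86 and 1.40 in log2(CPM + 0.5), Fgf17 by 0.78 and 1.07, and Fgf8 by −0.16 and 0.37. In the 5 libraries of low share alone, Fgf3 (1.44, adjusted p = 0.0122) and Fgf17 (1.12, adjusted p = 0.0306) passed, and with the share as a term Fgf3 did (1.70, adjusted p = 0.0344). The part of the share of such reads and of tail bud content in these levels cannot be told apart, since both marked the same libraries.

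**Figure D4:**
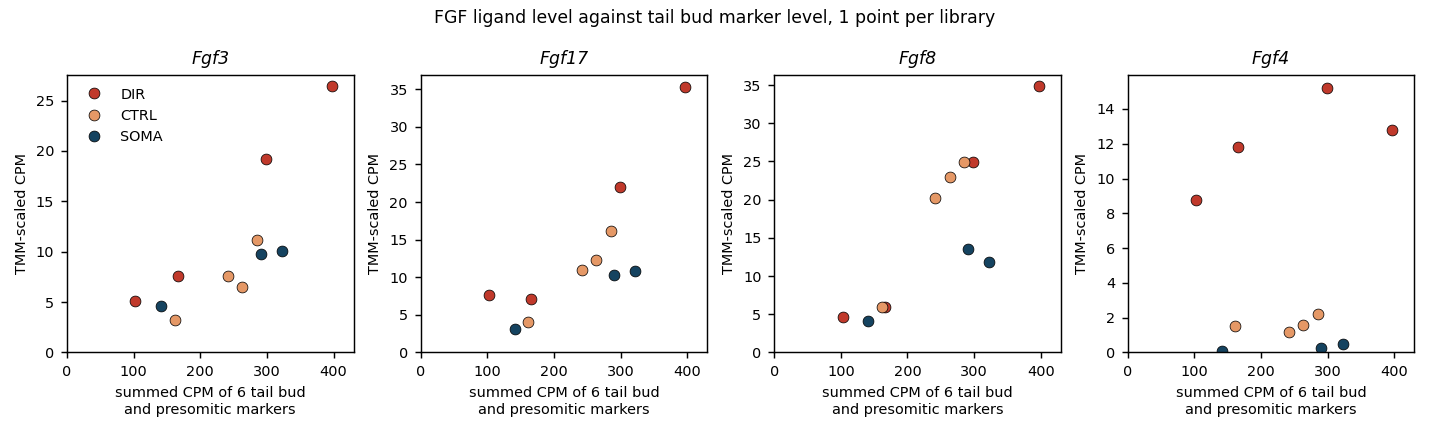
Each point is 1 library of DIR, CTRL or SOMA, with the summed CPM of 6 tail bud and PSM markers on the x axis and the TMM-scaled CPM of Fgf3, Fgf17, Fgf8 or Fgf4 on the y axis (both linear). For Fgf3, Fgf17 and Fgf8 the libraries low in the markers are low in the ligand, apart from Fgf3 in DIR2 (7.56 CPM, above 6.46 CPM in CTRL4), and for Fgf4 the 4 DIR libraries (8.74 to 15.2 CPM) lie above the others at any marker level.

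The remaining ligands did not pass or were near 0 in culture. Fgf9 had 9.11, 11.7, 12.4 and 8.62 CPM in DIR, against 18.4, 13.2, 11.8 and 15.1 CPM in CTRL, and did not pass (−0.49 ± 0.19, adjusted p = 0.287). Fgf10 had 42.4, 54.2, 27.3 and 32.3 CPM in DIR, against 50.4, 28.9, 34.3 and 35.1 CPM in CTRL (0.06 ± 0.24, 95% interval −0.47 to 0.59, adjusted p = 0.922). Its interval leaves room for a change of about 0.59 on the log2 scale. The lateral plate and limb field markers summed to 96.1 to 165.1 CPM in DIR and 284.3 to 351.7 CPM in CTRL, without overlap. Their part in the Fgf10 values of the cultured libraries was not tested. Fgf5 had 0.0246, 0.0995, 0.144 and 0.0344 CPM in DIR, 9 counts in all, against no count in CTRL. The exact 95% interval of the ratio of DIR to CTRL starts at 1.92 (counting error only). It was under the filter, and did not pass without the filter (adjusted p = 0.268) or with all 29 libraries in 1 fit (0.101).

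In trunk tissue no ligand passed in MUT against WT, where 0.338% of 14485 genes did. None of the 8 tested had an unadjusted p under 0.05 in edgeR, and DESeq2 also called none. Fgf17 had the largest difference, with 1.19, 1.31 and 0.419 CPM in MUT1 to MUT3, against 7.97, 2.60 and 0.214 CPM in WT1 to WT3 (−1.88 ± 0.93, 95% interval −3.98 to 0.21, adjusted p = 0.384). The groups overlapped through WT3, which was also low in tail bud markers (13.9 CPM, against 61.1 and 51.5 in WT1 and WT2). MUT1 to MUT3 had 26.7, 32.3 and 21.0 CPM of these markers, and their part in the Fgf17 values was not tested. Fgf8 had 5.36, 2.97 and 2.72 CPM in MUT, against 7.08, 5.53 and 2.89 CPM in WT (−0.49 ± 0.37, adjusted p = 0.612). Fgf15 had 12.8, 16.1 and 20.5 CPM in MUT, against 21.3, 17.6 and 10.2 CPM in WT, and its difference was 0.00 ± 0.26 (95% interval −0.58 to 0.58). Fgf18 gave 0.43 ± 0.37 (−0.39 to 1.26), with 14.1, 12.01 and 7.96 CPM in MUT, against 10.6, 10.9 and 3.72 CPM in WT. Fgf3, Fgf5, Fgf9 and Fgf10 differed by −0.56 to 0.13 with adjusted p of 0.716 to 0.997. Fgf4 was under the filter, with 0, 0 and 27 counts in MUT1 to MUT3, against 3, 3 and 16 counts in WT1 to WT3. Without MUT3 it had no count in MUT. Differences smaller than these intervals were not detectable with 3 libraries a group.

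Ordered by mean level over the 8 groups, the ligands form separate patterns. MUT and WT are not like the other groups: 38.8 to 40.6% of their reads were not uniquely aligned, against 15.9 to 25.4% elsewhere. Their 4 blood markers summed to 942.2 to 2657 CPM, against at most 83.0 CPM in any other library. The part of these differences in the ranks was not tested. Fgf3, Fgf8 and Fgf17 were highest in DIR, CTRL and SOMA, which overlapped with each other for each gene. For Fgf3 these 3 groups lay apart from the 5 others. For Fgf17 WT reached into them, and for Fgf8 both WT and MUT did. Fgf4 was highest in DIR, then CTRL, then SOMA, without overlap between these 3, and Fgf15 was highest in DIR (25.9 ± 1.82 CPM), clear of MUT (16.5 ± 3.90) and WT (16.4 ± 5.64). CTRL followed at 10.2 ± 1.83 CPM and SOMA at 7.13 ± 0.72 CPM, with no overlap between CTRL and SOMA or between SOMA and SOMB. Fgf18 was highest in SOMA and DIR, which overlapped, and lowest in SOMD. Fgf10 was highest in DIR, CTRL and SOMD, which overlapped, and lowest in WT (14.2 ± 8.04 CPM) and SOMA (14.4 ± 3.57 CPM). Fgf5 was at its highest in MUT (1.07 ± 0.748 CPM) and WT (1.07 ± 0.683 CPM), with SOMD and SOMC just under them and overlapping.

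Of the 5 FGF receptor genes, which encode 4 tyrosine kinases and the decoy-like Fgfrl1, all passed in SOMD against SOMA, where 19.8% of all genes tested did. Fgfr4 (1.14 ± 0.22, adjusted p = 0.00129), Fgfr3 (1.0 ± 0.28, adjusted p = 0.0169) and Fgfr2 (0.65 ± 0.16, adjusted p = 0.00994) were higher. Fgfr1, the main receptor of the PSM, was lower (−0.35 ± 0.10, adjusted p = 0.0254), as was Fgfrl1 (−0.25 ± 0.06, adjusted p = 0.00989). By the first step, SOMB against SOMA, Fgfr3 was already higher (20.2 CPM in SOMB, 8.39 CPM in SOMA, adjusted p = 0.00932) and Fgfr1 lower (192 CPM in SOMB, 261.3 CPM in SOMA, adjusted p = 0.00959), and so was Fgfrl1 (adjusted p = 0.00323), where 8.67% of all genes passed. SOMC against SOMB had Fgfr4 higher (0.92 ± 0.20, adjusted p = 0.0458; 0.827% of all genes passed), and SOMD against SOMC none. In DIR against CTRL only Fgfr3 passed, lower at 5.13 CPM in DIR against 17.9 CPM in CTRL (−1.80 ± 0.21, adjusted p = 0.00552; 0.747% of all genes passed). Fgfr2 and Fgfr4 were below CTRL in every DIR library without passing (adjusted p = 0.121 and 0.110). CTRL against SOMA had Fgfr3 higher (1.05 ± 0.29, adjusted p = 0.0311; 20.8% of all genes passed), and MUT against WT none.

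Of 11 genes known to answer to FGF signals (sprouty and Spred inhibitors, the ERK phosphatase Dusp6, the ETS factors Etv1, Etv4 and Etv5, and Il17rd), 6 were lower in SOMB than in SOMA, none was higher and 5 did not pass, where 4.55% of all genes tested were lower. The lowest p-values were those of Spry2 (21.8 CPM in SOMB, 44.1 CPM in SOMA, adjusted p = 4.34e-05), Il17rd (66.1 CPM in SOMB, 162.1 CPM in SOMA, adjusted p = 0.00193) and Etv4 (27.7 CPM in SOMB, 53.4 CPM in SOMA, adjusted p = 0.00371). The list's median was −0.57. None passed in SOMC against SOMB. In SOMD against SOMC, Spry2 (0.47 ± 0.12, adjusted p = 0.0426) and Spry4 (1.43 ± 0.33, adjusted p = 0.0322) were higher and none lower (1.26% of all genes were higher), the step at which Fgf10 was higher and Fgf18 lower. Over the whole series, SOMD against SOMA, 5 were lower, where 8.92% of all genes were. None of the 11 passed in DIR against CTRL, where Fgf4, Fgf15 and Fgf18 were higher. Their median there was −0.10. Etv1 alone was higher in CTRL than in SOMA (1.05 ± 0.18, adjusted p = 0.00462; 12% of all genes were higher), and none passed in MUT against WT.

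Of 16 co-receptor and heparan sulfate genes, 14 or 15 were tested. Flrt3 (0.80 ± 0.10, adjusted p = 9.83e-05) and Flrt2 (1.08 ± 0.27, adjusted p = 0.0169), membrane proteins that bind FGF receptors, were higher in SOMB than in SOMA, and 1 gene, the glypican Gpc1, was lower, so 3 of 14 passed where 8.67% of all genes did. In SOMD against SOMA 4 of 14 were higher and 2 lower, where 19.8% of all genes passed, with Flrt2 at 98.8 CPM in SOMD against 11.4 CPM in SOMA (3.09 ± 0.28, adjusted p = 1.02e-06). Flrt2 was also higher in SOMD than in SOMC (adjusted p = 0.0250). In CTRL against SOMA 1 of 15 was higher and 3 were lower, a share near the 20.8% of all genes, and none passed in SOMC against SOMB, DIR against CTRL or MUT against WT. Of 13 other genes of the FGF family, 3 to 7 were tested. Fgf13, an intracellular family member, was lower in SOMB than in SOMA (9.46 CPM in SOMB, 16.0 CPM in SOMA, adjusted p = 7.96e-04) and in SOMD. Fgf20 was lower in SOMD than in SOMA (0.00889 CPM in SOMD, 0.723 CPM in SOMA, adjusted p = 6.20e-04). Fgf21 was higher in CTRL than in SOMA (0.777 CPM in CTRL, 0.0818 CPM in SOMA, adjusted p = 0.0137). None passed in DIR against CTRL or MUT against WT.

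Likeness of pattern was described by Pearson's r of log2(CPM + 1) over the 15 SOM libraries, among the 10332 genes that averaged 5 CPM or more. These libraries share the group means of 4 levels, so high values are common and none was tested. Fgf3 was most like Msgn1, a regulator of the PSM (r = 0.993), and Fgf17 was too (0.993), followed by Hes7, a gene of the segmentation clock (0.977). Fgf8 was most like Tln2 (0.944) and Hoxb1 (0.939), and Fgf18 most like Ifitm1 (0.967). Fgf10 was most like Lmx1b (0.946), a LIM-homeobox factor, and Fgf9 most like Peli2 (0.972). Fgf15 and Fgf5 had Ppef2 (0.961) and Usp29 (0.906) first. Among the ligands themselves Fgf3 and Fgf17 were the most alike (0.985), Fgf8 came near both (0.945 with Fgf17), and Fgf10 and Fgf18 ran against each other (−0.797).

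Fgf3, Fgf4 and Fgf15 lie side by side on chromosome 7. Differences between these genes were not tested. Gene bodies of Fgf4 and Fgf15 are 31287 bp apart. In DIR against CTRL, Fgf4 and Fgf15 passed and Fgf3, beside them, did not, though its interval (−0.18 to 2.24) holds the 1.33 of Fgf15, while in SOMB against SOMA, Fgf3 was 22.6-fold lower and Fgf15 lower by 0.98 ± 0.28 on the log2 scale. Fgf3 and Fgf15 were both lower in SOMD than in SOMA, and their r over the 15 SOM libraries was 0.793. The nearest protein-coding genes on both sides, Ano1 (86108 bp from Fgf3) and Ccnd1 (28977 bp from Fgf15), passed in neither comparison. The noncoding RNA gene Bc1 lies between Fgf15 and Ccnd1, 13516 bp from Fgf15, and was under the filter on low counts in all 7 comparisons. Ano1 gave −0.18 ± 0.21 (adjusted p = 0.719) and Ccnd1 0.09 ± 0.13 (adjusted p = 0.767) in DIR against CTRL. Against SOMA, CTRL had higher Ano1 (1.42 ± 0.19, adjusted p = 0.00157) and lower Ccnd1 (−0.47 ± 0.10, adjusted p = 0.0112), whereas Fgf3 did not pass and Fgf4 was higher. In the promoter windows printed for the neighbours Fgf3 and Fgf4, the first held no match to the 6 motifs and the second 3. A match is a description of letters and not a site.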

How the data were processed

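RNA was taken with Trizol from embryos at E9.0, and libraries had 11 PCR rounds after TruSeq RNA v2 preparation, per the labels' protocols. The deposited files hold whole-number read counts for each gene. The submitters' processing notes name TopHat2 2.0.9, Cufflinks, HTSeq 0.6, DESeq2 1.10 and the mm10 build. The sources used here do not give the annotation, the strand setting or the role of each tool. The 29 files list 23337 genes and 5 HTSeq summary lines each, and these lines were left out of library sizes and tests (6.54 to 12.8% of reads in no feature, and 15.9 to 40.6% not uniquely aligned, which may count alignments).

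Libraries were grouped by title and label. Genes were kept by filterByExpr with a minimum count of 10 and a minimum total of 15. Counts were TMM-scaled and compared with the quasi-likelihood F tests of edgeR 4.0.16 (prior count 0.125, R 4.3.3) in 7 comparisons, with Benjamini-Hochberg adjustment across every gene tested and a threshold of 0.05. The SOM libraries shared 1 fit, and each other comparison had its own. The limit for low levels is 3 counts over a group, and exact intervals (95%) of count ratios cover counting error only. Levels per kb use the union of exons in GENCODE M21 (20953 of 23337 symbols matched, and 9 of 9 ligands). Promoters come from RefSeq (6 of 9 ligands matched; windows of Fgf8, Fgf15 and Fgf17 were not used here). Within-batch differences use log2(CPM + 0.5). Python 3.11.15 and matplotlib 3.10.9 drew the figures. The fits were tested on simulated counts.

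The ligands, the pathway and marker lists, and the comparisons were chosen with earlier results of these data known. All 9 ligands are named with values; of pathway lists the receptors and up to 3 called genes with the lowest p per comparison; of pattern likeness up to 3 genes per ligand; and the neighbours of Fgf3, Fgf4 and Fgf15. A few pathway or marker genes beyond these (Fgf20, Fgf21, Spry4 and the myotome and limb field markers given by name) were named after their values were seen. Libraries were counted as 1 sample only if their chi-square was under 1.5 per degree of freedom, which no pair met. Same-numbered libraries deviated together from their group means in SOMB against SOMA (3 pairs, correlations 0.494 to 0.549) and, with 4 pairs, in SOMD against SOMC (0.493 to 0.616). The fits behind the reported values did not use the numbers, which entered only as the replicate block among the alternatives. SOMD1 with SOMC4 (0.454) and SOMD4 with SOMC1 (0.472) correlated about as well, so the numbers are not specific there. In SOMC against SOMB same-numbered libraries gave −0.314 to 0.528, and some matched across numbers (0.565 for SOMC2 with SOMB3, 0.585 for SOMC4 with SOMB1). Any pairing by number is read from the counts and is not stated in the labels. Alternatives were RLE size factors, library totals, no filter, DESeq2 1.42.0, all 29 libraries in 1 fit, a replicate block, each library left out, terms or subsets for the shares of reads not uniquely aligned or in no feature, library sets as a block, near-identical pairs summed, and the level of Xist as a term in MUT and WT.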

Additional observations from a re-analysis of the deposited data

Results flagged for a closer look

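In 44 groups of 4 libraries tested for a library far from the rest, 5 stood out by Dixon's test at the 95% level. For normally distributed values chance alone gives about 1 in 20. Of these, 3 are single counts of Fgf4 in groups that otherwise had none, at 0.0453 CPM in SOMB1, 0.0652 CPM in SOMC3 and 0.0356 CPM in SOMD4. A lone count in a group always stands out by this test, so the 5 cannot be set against that rate. Fgf9 was at 9.97 CPM in SOMC2, against 4.61 to 5.47 CPM in the other SOMC libraries. Fgf18 was at 24.8 CPM in CTRL3, against 17.9 to 18.5 CPM in the other CTRL libraries.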

How the results depend on the processing

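Of 23 ligand results past the threshold, all kept their direction in every alternative run, 16 also stayed past it in every one, and 7 lost it in at least 1. Of 33 results not past it, 8 passed in at least 1 alternative. The cause of these changes was not tested. In DIR against CTRL 5 ligands passed with only the libraries that had fewer multiply aligned reads, and the replicate block gave 2. In SOMC against SOMB the library sets as a block gave 2 and the near-identical libraries summed gave 0. In SOMD against SOMC the library sets as a block gave 4, the near-identical libraries summed gave 1 and all 29 libraries in 1 fit gave 1. All 29 libraries in 1 fit also ended the calls of Fgf9 (adjusted p = 0.103) and Fgf18 (0.0760) in SOMB against SOMA and of Fgf10 in SOMD against SOMC (0.0885). With each library left out in turn the number of ligands past the threshold was 2 to 2 in DIR against CTRL, 3 to 6 in SOMB against SOMA, 0 to 1 in SOMC against SOMB, 1 to 3 in SOMD against SOMC, 8 to 8 in SOMD against SOMA, 3 to 5 in CTRL against SOMA and 0 to 0 in MUT against WT.

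Where all same-numbered libraries deviated together (SOMB against SOMA and SOMD against SOMC), the block changed the calls of Fgf15 and Fgf5 in SOMB against SOMA and no other ligand call. Elsewhere same-numbered libraries did not all deviate together (correlations of −0.706 to 0.824 in DIR against CTRL, −0.278 to 0.0677 in CTRL against SOMA). There the block ended the calls of Fgf18 in DIR against CTRL (adjusted p = 0.0565) and Fgf4 in CTRL against SOMA (0.0549). Counts of all genes past the threshold varied more: 106 in DIR against CTRL became 92 to 1482 over the settings that keep all or several libraries, 1196 in SOMB against SOMA became 776 to 2994, 114 in SOMC against SOMB became 15 to 984, 322 in SOMD against SOMC became 51 to 1932, 2724 in SOMD against SOMA became 2018 to 5957, 2938 in CTRL against SOMA became 990 to 4472 and 49 in MUT against WT became 1 to 710. All 72 group levels stayed within 1 SD with library totals in place of TMM, and 59 of 72 levels per kb did with the longest transcript. Depth limits Fgf4 and Fgf5 in the SOM libraries, and 3 or 4 libraries a group limit the spread.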
